A study of Mus musculus with 17 samples.

Results

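The estrogen receptors and their relatives were followed in bulk RNA-seq of isolated mouse islets. The group was chosen by name and holds 6 genes, which are *Esr1*, *Esr2* and *Gper1*, the receptors of estrogen, and *Esrra*, *Esrrb* and *Esrrg*, the estrogen-related receptors. All 6 were found by their Ensembl identifiers among the 78239 identifiers of one table and among the 73212 of the other. Only male mice were used. The first table holds 4 groups of 3 libraries, from islets of mice on a C57BL6/N background, which were wildtype and homozygous *Pax4* R192H mice (a knock-in of the endogenous gene, HH in the sample names), each at 12 weeks of age on a standard chow diet (SCD) and at 16 weeks after 4 weeks of a high-fat diet (HFD). Diet and age therefore changed together. The second table holds 2 libraries of control mice, with floxed *Pax4* alleles and no Cre, and 3 of *Pax4* βiKO mice, with the same floxed alleles and the Pdx1-CreERT2 transgene. Both of its groups received tamoxifen between 7 and 9 weeks of age, ate the HFD for 8 weeks and were sampled at 20 weeks. How many mice gave each library is not given in the sources used here. The βiKO and control mice thus differ both in the transgene and in the loss of *Pax4*, and the *Pdx1* promoter that drives the transgene is active in β cells and in some other pancreatic cells.

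Estrogen receptors α (*Esr1*) and β (*Esr2*) are nuclear receptors that bind estradiol, leave their chaperones and act on genes that carry estrogen response elements. *Gper1* is a membrane receptor that couples estrogen to G proteins. The estrogen-related receptors α, β and γ (*Esrra*, *Esrrb*, *Esrrg*) resemble estrogen receptor α in sequence, bind no estrogen, and drive genes of mitochondrial respiration together with the coactivators PGC-1α and PGC-1β. *Esrrg* is known in the islet for a part in the metabolic maturation of β cells. CreERT2 is a fusion of Cre recombinase with a mutated ligand-binding domain of estrogen receptor α, held in the cytoplasm by chaperones until tamoxifen binds it. Reads from that domain can be assigned to *Esr1* where the sequences match.

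In GRCm38 with the GENCODE M21 annotation, *Esr1* (ENSMUSG00000019768) lies on the plus strand of chromosome 10 from 4611593 to 5005614. Chromosome 12 carries *Esr2* (ENSMUSG00000021055, minus strand) from 76120419 to 76177259 and *Esrrb* (ENSMUSG00000021255, plus strand) from 86361117 to 86521628. *Gper1* (ENSMUSG00000053647) lies on chromosome 5 from 139423151 to 139427800 on the plus strand. *Esrra* (ENSMUSG00000024955) spans 6910977 to 6921813 on chromosome 19, minus strand, and *Esrrg* (ENSMUSG00000026610) spans 187608791 to 188214885 on chromosome 1, plus strand. All are protein-coding. No run of 100 bases, the read length, was shared between the annotated transcripts of any of the 15 pairs of these genes, so exact matches do not move reads from one to another.

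Promoter windows from 250 bases before to 50 bases after each start were read from RefSeq on GRCm38.p6. They are shown for *Esr1*, whose counts differed most between groups, for *Esrra*, and for *Cox5b* and *Idh3g*, genes of the estrogen-related receptor list described further on. Capitals mark the nuclear receptor half-site AGGTCA on either strand, and a window without capitals holds none.
*Esr1*, chr10:4611739-4612038, plus strand: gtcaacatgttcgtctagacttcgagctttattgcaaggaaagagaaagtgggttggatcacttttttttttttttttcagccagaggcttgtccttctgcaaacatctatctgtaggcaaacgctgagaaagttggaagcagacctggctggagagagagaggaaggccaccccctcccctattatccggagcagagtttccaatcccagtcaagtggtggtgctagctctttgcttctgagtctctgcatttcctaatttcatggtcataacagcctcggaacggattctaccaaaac
*Esrra*, chr19:6921759-6922058, minus strand: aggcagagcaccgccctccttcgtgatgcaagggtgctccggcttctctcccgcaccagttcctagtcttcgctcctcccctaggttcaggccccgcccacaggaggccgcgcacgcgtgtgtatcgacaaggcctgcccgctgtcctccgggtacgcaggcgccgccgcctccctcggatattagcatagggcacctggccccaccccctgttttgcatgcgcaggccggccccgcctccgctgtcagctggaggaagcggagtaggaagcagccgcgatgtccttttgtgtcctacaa
*Cox5b*, chr1:36691237-36691536, plus strand: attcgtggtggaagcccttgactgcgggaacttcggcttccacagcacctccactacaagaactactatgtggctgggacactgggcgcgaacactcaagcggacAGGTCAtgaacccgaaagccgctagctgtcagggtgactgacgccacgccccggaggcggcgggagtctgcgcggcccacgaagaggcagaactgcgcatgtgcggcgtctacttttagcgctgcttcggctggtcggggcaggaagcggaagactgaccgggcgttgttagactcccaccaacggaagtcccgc
*Idh3g*, chrX:73786848-73787147, minus strand: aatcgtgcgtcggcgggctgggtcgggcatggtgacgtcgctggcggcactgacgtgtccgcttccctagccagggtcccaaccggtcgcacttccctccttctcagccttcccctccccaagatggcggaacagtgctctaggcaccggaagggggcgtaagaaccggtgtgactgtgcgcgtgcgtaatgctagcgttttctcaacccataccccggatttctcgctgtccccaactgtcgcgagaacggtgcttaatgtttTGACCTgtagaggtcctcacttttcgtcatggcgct
The *Esr1* window shown, the first of this gene along the chromosome, and the *Esrra* window hold no half-site. A further *Esr1* window, at chr10:4709908-4710207, is not shown and holds none either. The *Cox5b* and *Idh3g* windows hold 1 each. *Cox5b* and *Idh3g* were picked for display after their values were seen. The half-site was absent from all 11 windows of the 6 receptors and present in 16.3% of all 32851 windows. It was found in 33.3% of the 18 windows of the estrogen-related receptor list, in *Acadm*, *Cox5b*, *Fh1*, *Idh3g*, *Perm1* and *Sdhb*; windows were given for 17 of the 22 genes of that list. The longer element TNAAGGTCA, which contains the half-site, was present in 1.28% of all windows and the palindromic estrogen response element, GGTCA and its inverted copy with 3 free bases between them, in 0.07%, and neither occurred in the windows of the receptors or of that list. These matches are of letters and do not show binding.

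Total counts per library were between 24268150 and 42679673 in the R192H table and between 28618787 and 31887499 in the knockout table. Values are given as CPM (counts scaled to a library of 1e+06) of the TMM-normalized library, and each table was normalized on its own, so levels are not tested across tables. A count of 3, the limit that a count of 0 allows, equals between 0.0724 and 0.126 CPM in the R192H table and between 0.0907 and 0.112 CPM in the knockout table, for counting error only. Over the R192H table, 2 genes took between 36.2% and 53.3% of the counts of a library, which lowers the depth left for receptors. Islet identity was clear in both tables, since the summed CPM of 5 β cell markers was between 29527 and 93539 and none was at 0. The summed CPM of 10 acinar markers was between 28307 and 76377 in HFD-fed *Pax4* R192H islets and between 10288 and 20261 in the other 3 groups of that table. In the knockout table the acinar sum was between 18431 and 79433 in control and between 12533 and 61715 in βiKO islets. *Pax4* was listed at 0 in all 17 libraries, so it does not check the genotypes. A gene was called where edgeR's quasi-likelihood test gave a Benjamini-Hochberg adjusted p below 0.05 and the absolute log2 fold change was above 0.5.

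*Esr1* was low in every library without the transgene and abundant in every βiKO library. In SCD-fed wildtype islets its counts were 5, 31 and 18. In SCD-fed *Pax4* R192H islets they were 9, 16 and 7, in HFD-fed wildtype islets 10, 6 and 14, and in *Pax4* R192H islets of HFD-fed mice 3, 14 and 2. Control islets of the knockout table had 19 and 16 counts, and βiKO islets had 7648, 9043 and 9732. The 14 libraries without the transgene thus held between 2 and 31 counts, with a median of 12, and none came near the 3 βiKO libraries.

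In CPM, *Esr1* was 0.706 and 0.530 in control and 265, 273 and 298 in βiKO islets. The group means were 0.618 ± 0.124 (SD, n = 2) and 279 ± 17.3 (SD, n = 3), and the groups did not overlap, as for 15.9% of all genes, which were higher in βiKO islets without overlap. The log2 fold change was 8.82 (SE 0.16), with an adjusted p of 5.68e-07 by edgeR's quasi-likelihood test. Of 20167 genes tested, 18 were called (0.0893%), and 12 of them were higher in βiKO islets (0.0595%), with *Esr1* as the single receptor among them. *Esr1* made up between 90.8% and 92.8% of the counts of the 6 receptors in βiKO islets, 2.82% and 1.94% in control islets, and between 0.45% and 5.89% in the libraries of the R192H table. It was called in every alternative run for this comparison, with log2 fold changes between 8.62 and 9.03. The acinar level differed between libraries of the knockout table, and the range includes the model with the acinar markers as a covariate and the models without either library of high acinar level.

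Transgene reads and reads of the endogenous gene cannot be told apart in counts per gene, and *Pax4* loss and the transgene cannot be told apart by this design. Whether the endogenous gene itself changed was not tested. Of 29 genes annotated within 1 Mb of *Esr1*, 17 were tested in the knockout table and none was called by edgeR's quasi-likelihood test or had an unadjusted p below 0.05. Their median log2 fold change was 0.04, beside 0.01 over all genes tested, with 9 above and 8 below 0. *Ccdc170*, the nearest tested gene upstream, had a log2 fold change of 0.13, and *Syne1*, the nearest downstream, one of -0.20. *Rmnd1* and *Armt1*, further upstream, were at 0.09 and 0.20. *Esr1* was the single called gene in this stretch of chromosome 10, as the plot of its neighbours shows.

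**Figure D1:**
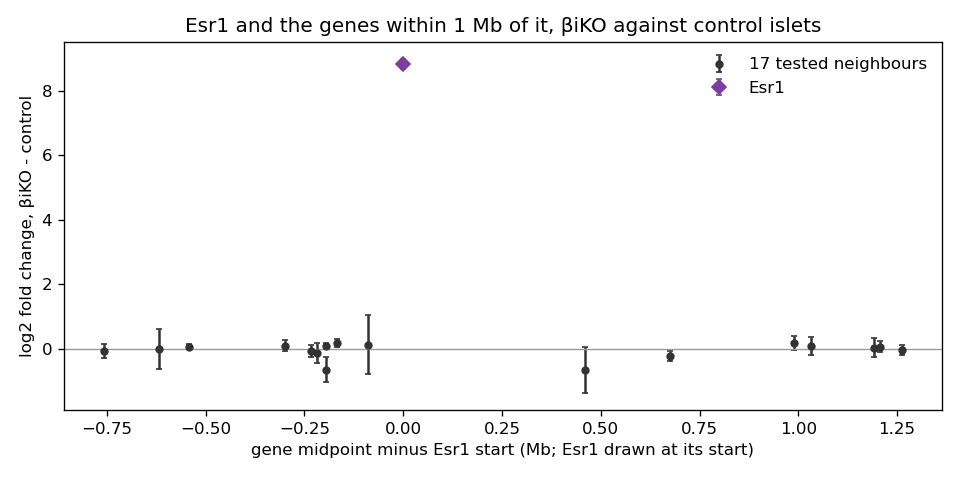
Log2 fold change of βiKO against control islets (vertical axis, ± standard error) for *Esr1* and the 17 tested genes within 1 Mb of it, by the distance of the gene's midpoint from the *Esr1* start in Mb (horizontal axis). *Esr1* stands at 8.82 and its neighbours scatter around 0.

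*Pdx1*, whose promoter drives the transgene, was measured beside it. Its CPM was 96.8 and 101 in control and 77.3, 76.6 and 75.4 in βiKO islets, so the βiKO libraries were all below the controls. The log2 fold change was -0.37 (SE 0.07), with an unadjusted p of 0.00108 and an adjusted p of 0.163 in edgeR's test, and *Pdx1* was not called. In the same comparison, 16.7% of all genes tested were lower in βiKO islets without overlap between the groups. *Pdx1* in the R192H table was between 37.4 and 69.8 CPM over the 12 libraries.

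*Esr2* was close to absent from these islets. It was listed at 0 in 11 of the 12 libraries of the R192H table, and the remaining library, of SCD-fed *Pax4* R192H islets, had 1 count. Control islets had 0 and 5 counts and βiKO islets 4, 0 and 1. *Esrrb* was equally low, with 2 counts in 1 SCD-fed wildtype library, 1 count in 1 HFD-fed *Pax4* R192H library and 0 in the other 10 libraries of that table. In the knockout table *Esrrb* was at 0 in both control libraries and at 2, 0 and 2 counts in βiKO islets. Neither gene passed the filter on low counts in either table, so 4 of the 6 receptors were tested, and at this depth no difference in *Esr2* or *Esrrb* was detectable. In bulk samples, fewer cells of a type and less RNA per cell cannot be told apart.

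*Gper1*, the membrane receptor, was low and detected in every library. Its counts were 7, 18 and 29 in SCD-fed wildtype islets, 26, 16 and 20 in SCD-fed *Pax4* R192H islets, 17, 5 and 7 in HFD-fed wildtype islets and 4, 4 and 9 in HFD-fed *Pax4* R192H islets. In CPM, the SCD groups were at 0.473 ± 0.232 in wildtype and 0.615 ± 0.176 in *Pax4* R192H islets, and the HFD groups at 0.269 ± 0.160 and 0.196 ± 0.0716 (SD, n = 3 each). The 3 HFD-fed *Pax4* R192H libraries lay below the 3 SCD-fed ones, as 20.6% of all genes tested did, while the wildtype libraries of the 2 diets overlapped. The log2 fold change of HFD against SCD was -1.61 (SE 0.64) in *Pax4* R192H islets, with an unadjusted p of 0.0256 and an adjusted p of 0.101 by edgeR's test, so it was not called. In wildtype islets it was -0.81 (SE 0.62, adjusted p = 0.558 by edgeR). The interaction of genotype and diet on *Gper1* was -0.80 (SE 0.89, adjusted p = 0.781 by edgeR), so the diet differences of the genotypes were not shown to differ. Control and βiKO islets had *Gper1* at 0.832 ± 0.230 CPM (SD, n = 2) and 0.832 ± 0.230 CPM (SD, n = 3), and the range of counts was 18 to 30 in control and 21 to 36 in βiKO.

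*Esrra* was detected in every library with at least 104 counts. In SCD-fed islets its CPM was 6.70, 6.28 and 4.90 in wildtype and 6.97, 6.76 and 3.97 in *Pax4* R192H mice. In HFD-fed islets it was 7.30, 9.89 and 8.31 in wildtype and 7.23, 7.68 and 8.73 in *Pax4* R192H mice. Every HFD library was above every SCD library in both genotypes, while the genotypes overlapped on each diet. The log2 fold change of HFD against SCD was 0.51 (SE 0.22) in wildtype islets, with an unadjusted p of 0.0344 and an adjusted p of 0.286. In *Pax4* R192H islets it was 0.41 (SE 0.22), with an unadjusted p of 0.0816 and an adjusted p of 0.211, both from edgeR's quasi-likelihood test. Neither was called. Of all genes tested, 8.47% were higher on the HFD without overlap in wildtype and 21.3% in *Pax4* R192H islets. The summed CPM of the 5 β cell markers, nearly all of it *Ins1* and *Ins2*, was between 29527 and 40533 in the SCD groups and between 50857 and 80781 in the HFD groups. None of the other 3 was called higher on the HFD by edgeR. *Mafa* and *Nkx6-1* overlapped between diets in both genotypes, and *Slc2a2* overlapped in wildtype islets and was lower on the HFD without overlap in *Pax4* R192H islets. The part of these markers in the *Esrra* difference was not tested.

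*Esrrg* varied widely among libraries of 1 group. Its CPM was 1.92, 6.52 and 3.33 in SCD-fed wildtype islets, a spread of more than 3 times within the group. The group means were 3.92 ± 2.36 in SCD-fed wildtype, 4.49 ± 2.31 in SCD-fed *Pax4* R192H, 4.02 ± 1.27 in wildtype on the HFD and 3.67 ± 0.828 in *Pax4* R192H islets on the HFD (SD, n = 3 each), and all 4 ranges overlapped. In the knockout table *Esrrg* was 13.5 and 13.2 CPM in control and 13.1, 14.4 and 9.90 CPM in βiKO islets, where *Esrra* was 10.2 and 12.4 CPM in control and 11.2, 12.2 and 12.4 CPM in βiKO islets. Both genes overlapped between control and βiKO islets, with log2 fold changes of -0.09 (SE 0.17, adjusted p = 0.849) for *Esrrg* and 0.07 (SE 0.14, adjusted p = 0.854) for *Esrra* in edgeR's test.

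**Figure D2:**
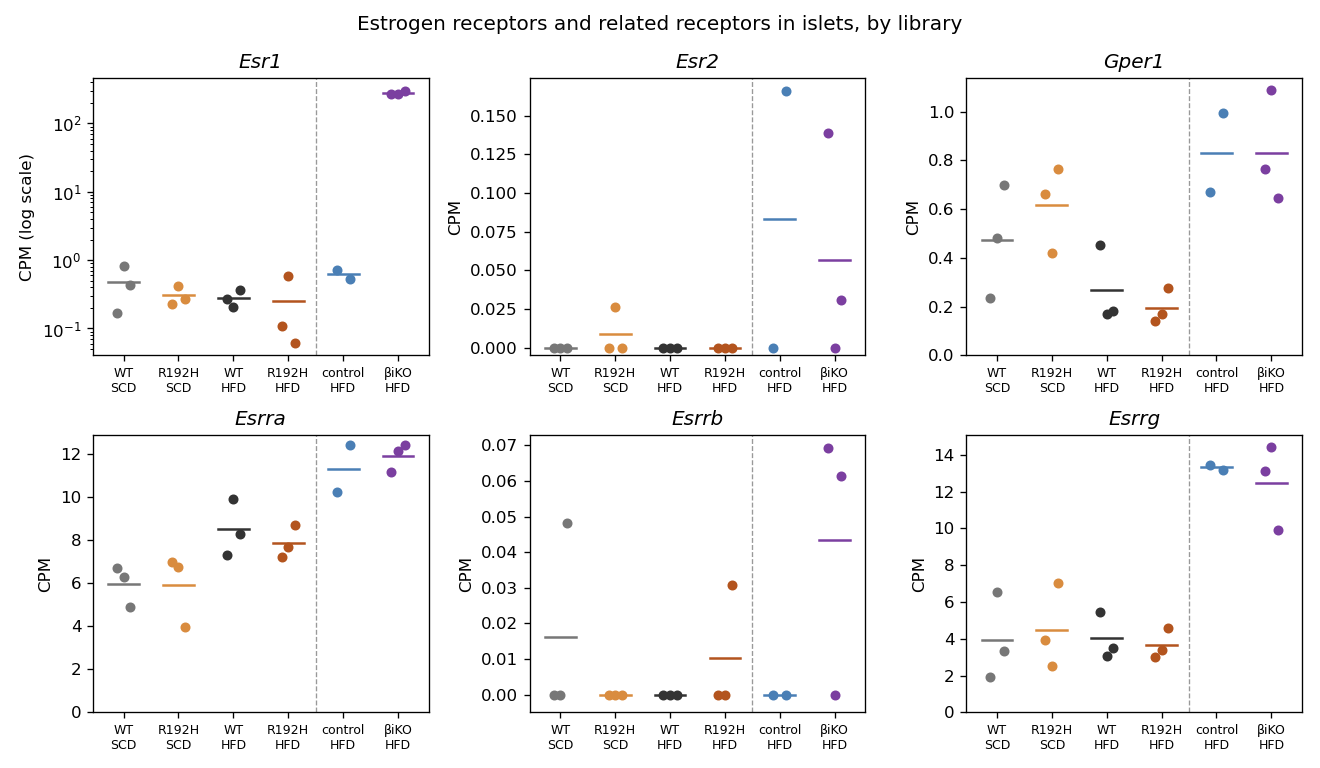
CPM of the 6 receptors (vertical axes; the *Esr1* axis is logarithmic) in each library (points) and group mean (bars) for wildtype (WT) and *Pax4* R192H islets on SCD and HFD and, right of the dashed line, for control and βiKO islets of the separately normalized knockout table. *Esr1* rises from below 1 CPM to between 265 and 298 CPM in βiKO islets, and *Esrra* is higher in all HFD than in all SCD libraries of the R192H table.

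Per kilobase of annotated exon, the receptors kept nearly one order in the R192H table. *Esrra* had between 0.905 and 2.26 CPM per kb, *Esrrg* between 0.309 and 1.13, *Gper1* between 0.0564 and 0.301 and *Esr1* between 0.00452 and 0.0609. *Esrra* was above *Esrrg* in 11 of 12 libraries, the exception being an SCD-fed *Pax4* R192H library with 1.25 times as much *Esrrg*. *Esrrg* was above *Gper1*, and *Gper1* above *Esr1*, in all 12 libraries. In the knockout table the ratio of *Esrrg* to *Esrra* per kb was between 0.562 and 0.930, beside a range of 0.202 to 1.25 with a median of 0.342 in the R192H table. The 2 control libraries kept the order of the R192H table, and in the 3 βiKO libraries *Esr1* came first with between 19.4 and 21.8 CPM per kb. That value divides by the exon length of the whole endogenous gene, 13661 bases, and would not be a level per length of a transcript that holds part of it.

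*Pax4* R192H against wildtype islets asked what the variant does on each diet, and none of the receptors was called. On the SCD the log2 fold changes were -0.64 (SE 0.80) for *Esr1*, 0.36 (SE 0.60) for *Gper1*, -0.01 (SE 0.22) for *Esrra* and 0.18 (SE 0.43) for *Esrrg*, each with an adjusted p of 1 by edgeR. In this comparison edgeR called none of 19137 genes (0%), with 629 at an unadjusted p below 0.05 (3.29%), none of them a receptor, and DESeq2 called 18. On the HFD the log2 fold changes were -0.19 (SE 0.84), -0.44 (SE 0.65), -0.11 (SE 0.22) and -0.13 (SE 0.43) for the same genes, with adjusted p between 0.811 and 0.947 by edgeR, beside 437 genes called (2.28%). The interaction of genotype and diet called 25 genes (0.131%) and no receptor, and HFD against SCD called 71 genes (0.371%) in wildtype and 2996 (15.7%) in *Pax4* R192H islets, again with no receptor. At an unadjusted p below 0.05, edgeR had *Esrra* in the wildtype diet comparison, with 15.2% of all genes, and *Gper1* in that of *Pax4* R192H, with 32.4%. DESeq2 called none of the receptors in any of these 5 comparisons.

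**Figure D3:**
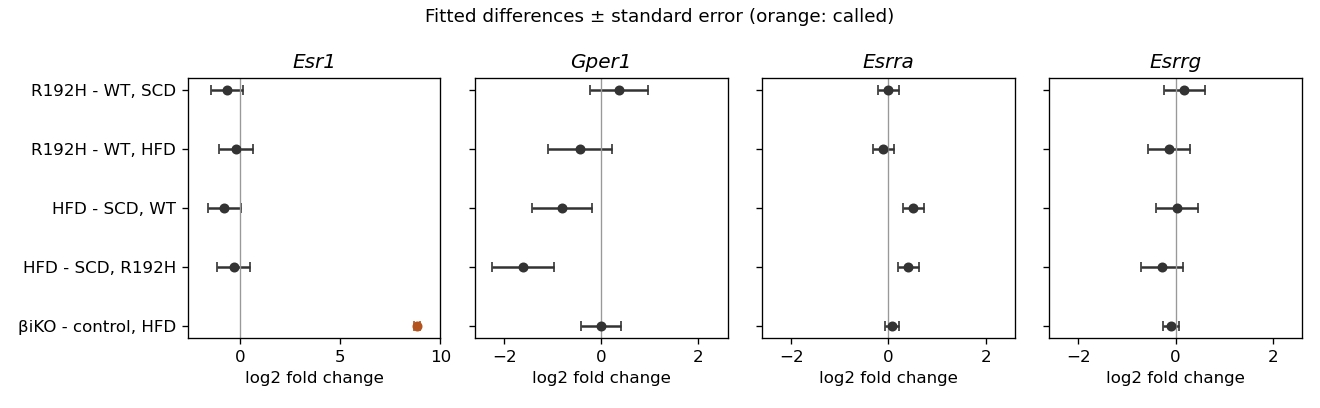
Fitted log2 fold change ± standard error (horizontal axes) of the 4 tested receptors in 5 comparisons (rows). The difference of *Esr1* between βiKO and control islets, 8.82, is the single called one (orange), and the *Esr1* axis is wider than the others.

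Chaperones that hold steroid receptors, and CreERT2, inactive were counted next. All 13 listed were tested and none was called between βiKO and control islets by edgeR, where 2 had an unadjusted p below 0.05, beside 12.8% of all genes. Their median log2 fold change was 0.17, beside 0.01 over all genes, with 10 above 0. *Hsp90aa1* and *Hsp90ab1*, the cytosolic HSP90 proteins, were at 0.42 and 0.11, *Hspa8*, the constitutive HSP70, at 0.45 and *Hspa4*, an HSP70 exchange factor, at -0.01. Between HFD and SCD in *Pax4* R192H islets, *Fkbp4*, an HSP90 cochaperone of steroid receptors, rose by 0.62 on the log2 scale (SE 0.19) and *Cdc37*, an HSP90 cochaperone of kinases, by 0.58 (SE 0.18), while *Dnaja1*, an HSP40 protein, fell by 0.65 on the log2 scale (SE 0.16). The adjusted p were 0.0405, 0.0454 and 0.0157 by edgeR, and 9.75% of all genes were called higher and 5.91% lower there. The calls of *Fkbp4* and *Cdc37* were lost without any one of the 6 libraries compared, and that of *Dnaja1* without SCD-fed *Pax4* R192H replicate 1 or 2 or HFD-fed *Pax4* R192H replicate 1 or 3. DESeq2 called 2 of the list higher there, beside 9.77% of all genes, and 2 lower, beside 7.43%. The lower ones were *Dnaja1* and *Dnajb1*. *Dnajb1* was at -0.87 (adjusted p = 0.0175 by DESeq2). EdgeR called *Dnajb1* lower only without the filter, beside 4.58% of all genes, or with only the 2 groups compared.

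The coregulators that nuclear receptors recruit had fitted differences mostly below 0 in both mutants on the HFD, and none passed the test with the filter on low counts. On the HFD all 14 listed genes had a lower fitted level in *Pax4* R192H than in wildtype islets, with a median log2 fold change of -0.43, beside -0.01 over all genes. None was called by edgeR or DESeq2, and 2 had an unadjusted p below 0.05 in edgeR's test, beside 15.9% of all genes. Without the filter on low counts, where edgeR called 1.23% of all genes lower, *Ncoa1*, *Ncoa2*, *Crebbp* and *Ep300* were among those called lower. *Ncoa1*, *Ncoa2* and *Ncoa3*, the p160 coactivators, were at -0.61, -0.54 and -0.47, and *Crebbp*, a histone acetyltransferase, at -0.66. Between βiKO and control islets 12 of 14 were below 0, with a median of -0.26 beside 0.01 over all genes. With the filter, edgeR called none and gave 8 an unadjusted p below 0.05, beside 12.8% of all genes, with *Ncoa1* at -0.38, *Ncoa2* at -0.34, *Ncoa3* at -0.15 and *Crebbp* at -0.38. Between HFD and SCD in *Pax4* R192H islets *Safb*, a corepressor of estrogen receptor α, fell by 0.56 on the log2 scale (SE 0.17, adjusted p = 0.0411 by edgeR), a call lost without any one of the 6 libraries compared. In that comparison 7 of the list were called lower without the filter, beside 4.58% of all genes, and 2, *Safb* and *Ncoa1*, by DESeq2, beside 7.43%. On the HFD the *Pax4* R192H libraries had mean acinar markers of 11.3 to 12.7 log2 CPM and the wildtype ones 10.1 to 10.7, and the part of this gap in the coregulator values was not tested.

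Of the other steroid receptors described here, *Nr3c2*, the mineralocorticoid receptor, was lower on the HFD in *Pax4* R192H islets. *Nr3c2* was 17.0, 17.2 and 14.7 CPM on the SCD and 9.20, 9.95 and 10.4 CPM on the HFD, a log2 fold change of -0.73 (SE 0.19, adjusted p = 0.0191 by edgeR). *Nr3c1*, the glucocorticoid receptor and by count the highest of these, differed by -0.39 (SE 0.11, adjusted p = 0.0334 by edgeR), inside the threshold on fold change, and *Pgr*, the progesterone receptor, was at -1.59 (SE 1.08, adjusted p = 0.331 by edgeR). The groups of *Nr3c2* and of *Nr3c1* did not overlap, beside 20.6% of all genes tested that were lower without overlap. Between βiKO and control islets none of these 3 was called by edgeR or DESeq2, with *Nr3c2* alone at an unadjusted p below 0.05, at -0.26 (SE 0.10, adjusted p = 0.350 by edgeR). On the HFD *Nr3c2* was also lower in *Pax4* R192H than in wildtype islets without overlap, as were 9.89% of all genes, at -0.64 (SE 0.19, adjusted p = 0.101 by edgeR, not called), while DESeq2 called it there (adjusted p = 0.0451 by DESeq2), with 1.74% of all genes. The call of *Nr3c2* between diets was lost without any single HFD-fed *Pax4* R192H library and without SCD-fed *Pax4* R192H replicate 1 or 2.

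Enzymes that make or remove estrogens were mostly low. Of 9 listed, 4 were tested in the R192H table and 5 in the knockout table. *Hsd17b7*, which reduces estrone and also serves cholesterol synthesis, had 4.05, 5.36 and 3.83 CPM in wildtype islets on the HFD and 2.11, 2.14 and 2.59 CPM in *Pax4* R192H islets on that diet. It fell by 0.95 on the log2 scale (SE 0.23, adjusted p = 0.0470 by edgeR), beside 0.82% of all genes called lower. The call was lost without any one of the 6 libraries, with the acinar covariate, with the replicate block and with only the 2 groups compared. *Cyp1b1*, which hydroxylates estrogens, had 29, 143 and 38 counts in wildtype islets on the SCD and 2, 2 and 19 on the HFD. DESeq2 called it lower there, at -3.20 (adjusted p = 0.00991 by DESeq2), beside 1.71% of all genes, and edgeR did not with the filter (adjusted p = 0.115 by edgeR) but did without it. In this comparison all 6 stromal markers were below 0, with a median log2 fold change of -1.69, beside 0.01 over all genes. The 5 macrophage markers were also all below 0, at a median of -0.85. The summed stromal CPM was 316 in the library with 143 *Cyp1b1* counts and 120 and 148 in the other SCD-fed wildtype libraries. The part of these markers in the *Cyp1b1* difference was not tested. None of the enzymes was called between βiKO and control islets by edgeR (1 of 5 at an unadjusted p below 0.05, beside 12.8% of all genes), where *Hsd17b7* was at 0.13 and *Hsd17b12*, a reductase of fatty acid elongation, at 0.25.

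Genes known to respond to estrogen in other tissues were read beside the high *Esr1* counts. Of the receptor, CreERT2 holds a mutated ligand-binding domain, so *Esr1* counts from the transgene would not mean more receptor acting on these genes. The source of those counts is therefore not answered by this list. Of 19 listed, 15 were tested in the knockout table. None was called between βiKO and control islets by edgeR, 4 had an unadjusted p below 0.05 (12.8% of all genes did), 7 were above 0 and 8 below, and the median was -0.01, beside 0.01 over all genes. DESeq2 called none either, and edgeR without the filter called *Areg* and *Kcnk5* higher and *Celsr2* lower, beside 1.8% of all genes in either direction. *Greb1*, an early target of estrogen receptor α, did not pass the filter and was at or below 0.149 CPM in all 5 libraries. *Pgr* was at 0.21, *Ctsd*, the lysosomal protease cathepsin D, at 0.15, *Xbp1*, a factor of the unfolded protein response, at -0.02 and *Igfbp4*, a binding protein of insulin-like growth factors, at 0.36. Of the same list 13 were tested in the R192H table, and 1 was called between HFD and SCD in *Pax4* R192H islets, *Ctsd*, which rose by 0.70 on the log2 scale (SE 0.16, adjusted p = 0.00930 by edgeR), from 193, 199 and 166 CPM to 282, 315 and 309 CPM, beside 9.75% of all genes called higher. DESeq2 called 3 of the list higher there, *Ctsd*, *Myc* at 1.12 and *Ccnd1* at 0.59, beside 9.77% of all genes. In wildtype islets DESeq2 called *Igfbp4* lower on the HFD, at -1.61 (adjusted p = 0.0282 by DESeq2), beside 1.71% of all genes, and edgeR did not (adjusted p = 0.158 by edgeR). The lower stromal markers in that comparison are given above, and their part in the *Igfbp4* difference was not tested.

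The list of genes that estrogen-related receptors are known to drive holds mostly enzymes of the citric acid cycle and components of the respiratory chain, with genes of pyruvate and fatty acid use, *Vegfa* and *Perm1*, and all were tested. Of 22, edgeR called 7 higher and 1 lower on the HFD than on the SCD in *Pax4* R192H islets, beside 9.75% of all genes called higher and 5.91% called lower. Their median log2 fold change was 0.20, beside -0.06 over all genes. *Cox5b*, a subunit of cytochrome c oxidase, was 42.6, 35.6 and 31.8 CPM on the SCD and 78.2, 76.7 and 84.1 CPM on the HFD and rose by 1.12 on the log2 scale (SE 0.15, adjusted p = 0.000493 by edgeR). *Cycs*, cytochrome c, rose by 0.95 on the log2 scale, *Uqcrfs1*, the Rieske subunit of complex III, by 0.68 and *Atp5b*, the β subunit of ATP synthase, by 0.58. *Idh3g*, *Suclg1* and *Mdh2*, enzymes of the citric acid cycle, each rose by 0.50 on the log2 scale, just past the fold threshold of 0.5. With RLE size factors they were at 0.49 each and not called, which left 4 genes of the list called higher, and DESeq2 did not call them either. *Cox6a2*, a cytochrome c oxidase subunit typical of muscle, was 27.1, 28.4 and 32.4 CPM on the SCD and 8.91, 20.4 and 17.0 CPM on the HFD and fell by 0.93 on the log2 scale (SE 0.25, adjusted p = 0.0235 by edgeR), a call lost without SCD-fed *Pax4* R192H replicate 2 or 3 or HFD-fed *Pax4* R192H replicate 1 or 3. In *Pax4* R192H islets the HFD libraries also had more acinar marker RNA than the SCD ones (28307 to 76377 beside 10383 to 15859 CPM summed), and with the acinar markers as a covariate none of the 22, and none of the genes of the other 5 lists above, was called. That covariate moves with the diet in these 6 libraries, so the covariate and the diet cannot be told apart there. Leaving out 1 library gave between 3 and 6 called genes; it was 3 without SCD-fed *Pax4* R192H replicate 3, 4 without HFD-fed *Pax4* R192H replicate 2 and 5 without HFD-fed *Pax4* R192H replicate 3. *Cox5b*, *Cycs* and *Uqcrfs1* were called without each of the 6 libraries in turn. *Atp5b* was lost without replicate 2 or 3 of either diet, *Mdh2* without SCD replicate 3 or HFD replicate 2, *Suclg1* without SCD replicate 1 or 3 or HFD replicate 1 or 2, and *Idh3g* in each of these fits except the one without HFD replicate 1.

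In wildtype islets 1 of the 22 was called higher on the HFD, beside 0.204% of all genes. It was *Cox5b*, which rose by 0.81 on the log2 scale (SE 0.15, adjusted p = 0.0465 by edgeR). Its CPM was 44.3, 32.2 and 34.9 on the SCD and 57.1, 70.5 and 67.5 on the HFD. The call was lost without SCD-fed replicate 2 or 3 or HFD-fed replicate 2 or 3. It was also lost with the acinar covariate, with the replicate block and with only the 2 groups compared. Between the genotypes on the HFD, edgeR called none of the 22, with 7 at an unadjusted p below 0.05 (15.9% of all genes) and a median of 0.11, beside -0.01 over all genes, while DESeq2 called *Cycs* higher, at 0.66, beside 3.54% of all genes, and *Cox6a2* lower, at -0.86, beside 1.74%. Between βiKO and control islets edgeR called none, 5 had an unadjusted p below 0.05 (12.8% of all genes) and 15 were above 0. DESeq2 called *Cox6a2* lower there, at -0.60 (SE 0.15, adjusted p = 0.00595 by DESeq2), beside 1.21% of all genes, and no gene of the other 5 lists, and edgeR called it without the filter. *Ppargc1a*, which encodes PGC-1α, was low in the R192H table, between 0.420 and 1.72 CPM, and between 5.18 and 7.29 CPM in the separately normalized knockout table. Its log2 fold change was -0.56 (SE 0.52, adjusted p = 0.661 by edgeR) between the genotypes on the HFD and -0.15 (SE 0.18, adjusted p = 0.775 by edgeR) between βiKO and control islets.

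**Figure D4:**
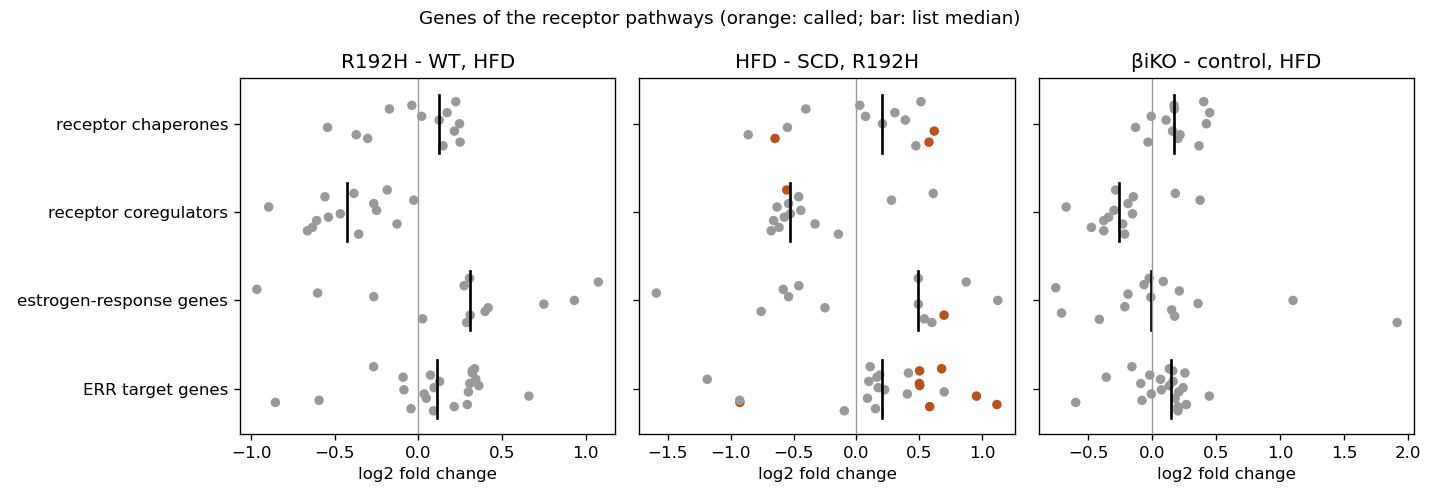
Log2 fold changes (horizontal axes) of the tested genes (points) of 4 lists (rows) in 3 comparisons, with called genes in orange and the list median as a bar; the steroid receptors and enzymes are left out. The coregulators lie below 0 in all 14 genes between *Pax4* R192H and wildtype islets on the HFD, and the estrogen-related receptor list has 8 called genes between HFD and SCD in *Pax4* R192H islets.

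The genes whose log2 CPM followed each receptor most closely over the 12 libraries of the R192H table were listed without a test, since these libraries share diet, age and acinar content. For *Gper1* they were *Cul4b* (Pearson r = 0.968), a ubiquitin ligase scaffold, *Ncam2* (0.939), an adhesion molecule, and *Pcdh9* (0.938), a protocadherin. For *Esrra* they were the unnamed gene ENSMUSG00000141958 (0.940), *Tmem177* (0.939), a factor of cytochrome c oxidase assembly, and *Pex5* (0.926), the import receptor of peroxisomes. *Esrrg* was closest to *Fam120c* (0.919) and also close to *Atp1b2* (0.911), a sodium pump subunit. *Esr1*, with its low counts, was closest to *Cttnbp2nl* (0.870), *Stam* (0.849) and *Rnd2* (0.836).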

How the data were processed

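Bulk RNA-seq of mouse islets was analysed in 2 tables, of 12 and 5 libraries. From stranded total RNA libraries the authors mapped reads with STAR (2.7.1, mm10), quantified transcripts with RSEM (1.3.3) and collapsed them to genes with tximport, as the study's methods and the submitters' processing notes state. The gene annotation is not given in the sources used here. Both deposited tables give the expected count of each gene, unscaled for depth, and these were rounded to whole numbers here. Samples were grouped by their labels, which call them biological replicates; the number of mice per library is not given in the sources used here. Gene names matched 65.821% of the identifiers of the R192H table and 66.693% of those of the knockout table.

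Differences were tested with the quasi-likelihood method of edgeR (4.0.16, under R 4.3.3) with TMM normalization, filterByExpr (minimum count 10) and one model per table with a coefficient per group. P-values were adjusted by Benjamini-Hochberg over all 19137 or 20167 genes tested. Standard errors are the fold change divided by the square root of its F statistic. CPM per kb used the union of GENCODE M21 exons. Log2 CPM for correlations used a prior count of 2. Alternatives were RLE size factors, no filter, DESeq2 (1.42.0), a replicate block, only the 2 groups compared, an acinar marker covariate, and leaving out each library. The counts of list genes under these settings were added after seeing the data. The tests were tested on simulated data. Replicates of one group differed beyond sampling noise, so none was merged. The receptors and gene lists were chosen with earlier results of these data known. Named were the receptors, called list genes and up to 4 others per list, in list order, and the 3 genes most alike each tested receptor. *Ppargc1a*, the genes with a half-site and list genes called only under an alternative were named outside that rule, after their values were seen. A few genes that this rule names are not reported here. *Sts* of the enzyme list was not matched. No list was tested as a set.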

Additional observations from a re-analysis of the deposited data

How the results depend on the processing

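The number of receptors called was the same in all 75 alternatives of the 6 comparisons, with *Esr1* called between βiKO and control islets in each of that comparison. Of 298 log2 fold changes of receptors under the alternatives, 255 kept their direction and 43 reversed, none of them called. With the acinar covariate *Esr1* moved to 0.84, *Esrra* to 0.22 and *Esrrg* to 0.17 between genotypes on the HFD, *Esrra* to 0.25 in the interaction, and *Esr1* to 0.90 and *Esrrg* to 0.061 between diets in *Pax4* R192H islets. *Esrra* moved to 0.0037 on the SCD with only the 2 groups compared, and *Gper1* to 0.0032 between βiKO and control islets without the filter.

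Same-numbered samples of the R192H table had correlations of their deviations between -0.296 and 0.193 in 18 pairs. The 36 other pairs were between -0.309 and 0.402, so the numbers gave no sign of pairing there. In the knockout table the 2 same-numbered pairs were at 0.0382 and 0.0729, beside -0.0729 to 0.0382 in 4 others. These are too few pairs to decide whether its numbers pair the samples. Replicate 1 of control and of βiKO islets had mean acinar markers of 12.75 and 12.39 log2 CPM, beside 10.09 to 10.65 in the other libraries of that table. With the replicate block 0 genes were called on the SCD, 147 between genotypes on the HFD, 0 in the interaction, 22 between diets in wildtype, 2347 between diets in *Pax4* R192H and 88 in βiKO islets. Under the block *Esr1* moved to -0.13 in the interaction, and *Gper1* to 0.16 and *Esrrg* to 0.048 between βiKO and control islets.

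Counts of all genes called moved more. Without the filter they were 261 on the SCD, 1279 between genotypes on the HFD, 708 in the interaction, 924 between diets in wildtype and 697 in βiKO islets. With DESeq2 they were 18, 917, 314, 539 and 251 in the same order. With the acinar covariate they were 1, 1, 0 and 40 in the first 4 of these and 120 between diets in *Pax4* R192H islets. With only the 2 groups compared they were 1 on the SCD and 1 between diets in wildtype islets. Leaving out 1 library gave between 93 and 498 genes between genotypes on the HFD, 0 and 101 in the interaction, 5 and 125 between diets in wildtype, 1706 and 2248 in *Pax4* R192H, 2 and 28 in βiKO islets and 0 on the SCD.

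Leaving out 1 library, *Esr1* ranged from -1.02 to 0.0053 on the SCD, from -1.70 to 0.29 between genotypes on the HFD, from -1.05 to 0.94 in the interaction and from -1.82 to 0.17 between diets in *Pax4* R192H islets. *Esrra* ranged from -0.13 to 0.21, from -0.21 to 0.014 and from -0.31 to 0.044 in the first 3 of these and from -0.060 to 0.22 in βiKO islets. *Esrrg* ranged from -0.29 to 0.75 on the SCD, -0.33 to 0.16 between genotypes on the HFD, -0.89 to 0.16 in the interaction, -0.28 to 0.61 between diets in wildtype, -0.53 to 0.19 between diets in *Pax4* R192H and -0.21 to 0.050 in βiKO islets. *Gper1* ranged from -0.79 to 0.16 between genotypes on the HFD and from -0.26 to 0.31 in βiKO islets. With no change of direction, *Gper1* ranged from 0.049 to 0.78 on the SCD, from -1.19 to -0.20 in the interaction and from -1.41 to -0.40 between diets in wildtype islets, *Esr1* from -1.16 to -0.12 between diets in wildtype and *Esrra* from 0.20 to 0.57 between diets in *Pax4* R192H islets. The causes were not tested. Counts under 32 limit *Esr1* outside βiKO islets, and *Gper1* is limited in the same way.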
